A study of Mus musculus with 6 samples.

Results

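ATF3 ChIP-seq peaks were examined at 9 genes that code for basic leucine zipper (bZIP) factors of the MAF, CNC and C/EBP families and for NFIL3. The members were taken by gene name: every peak whose assigned gene was Maf, Maff, Mafk, Bach1, Bach2, Nfe2l2, Cebpa, Cebpb or Nfil3. There are 6 lists, since each of 3 conditions has peaks from the standard method and from KOIN (KO implemented normalization). The rule gave 42 of the 16759 listed peaks, 25 from the standard lists and 17 from the KOIN lists, at 15 distinct sites. Of the 9 genes, 6 had a peak and 3 (Maff, Mafk and Cebpb) had none. HOMER assigns each peak to the gene with the nearest RefSeq start site, so the name says which start site is closest and not which gene a site acts on.

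The lists come from bone marrow-derived macrophages (BMDMs), primary cells grown from mouse marrow for 6 days with M-CSF, the macrophage growth factor, at 40 ng/ml. WT cells (Atf3 +/+) came from C57BL/6 mice aged 6 to 8 weeks and KO cells (Atf3 -/-) from age- and sex-matched ATF3-deficient mice, in which the gene is lost from all cells and not from macrophages alone. Cells of both genotypes were left unstimulated, given HDL at 2 mg/ml for 6 h, or given HDL in the same way and then CpG at 100 nM for 4 h. HDL is the lipoprotein that carries cholesterol away from tissues. CpG is bacterial-type DNA that activates Toll-like receptor 9. Reads of the 3 biological replicates were pooled by the authors, so each condition has 1 WT and 1 KO library. Every test below therefore compares 2 pooled libraries, or 4 for a pair of conditions, and every interval of a ratio covers counting error only. No interval covers the spread between replicates. The library totals were 37137377 (WT) and 75534584 (KO) tags in unstimulated cells, 37930363 and 66061648 with HDL, and 49467421 and 47504605 with HDL + CpG, so the KO library was 2.03, 1.74 and 0.960 times as deep as the WT library. A peak of the standard method was called in the WT library alone. A KOIN-corrected peak was called in WT against KO and had at least 2 times as many normalized tags in WT. A standard peak is called kept here if a KOIN peak of the same condition overlaps it by at least 1 bp, and removed if none does.

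All bZIP factors bind DNA as dimers, and each family recognizes a related sequence. ATF3 itself binds AP-1 and CRE sites and can pair with C/EBP proteins at composite C/EBP-ATF elements. MAF (c-MAF) is a large MAF factor with an activation domain that promotes Il10 expression in macrophages. MAFF and MAFK are small MAF factors that lack such a domain and serve as partners of the CNC factors. These partners include NRF2 (Nfe2l2), which activates antioxidant genes, and BACH1 and BACH2, which repress from the same antioxidant response elements. C/EBP alpha directs early myeloid differentiation, C/EBP beta supports inflammatory gene expression in macrophages, and NFIL3 is a bZIP repressor that limits Il12b expression.

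The sequences around the peak centres show which bZIP motifs these sites hold. Those of 7 sites are printed, 5 with an AP-1 or C/EBP-ATF match close to the centre, the site at Cebpa, and a site at Maf that KOIN removed in all 3 conditions. Each is the plus strand of NCBIM37 (mm9), 201 bases centred on the highest-scoring peak. The windows are chr2:75523695-75523895 (Nfe2l2 intron 1), chr13:53072138-53072338 (Nfil3 intron 1), chr16:87725089-87725289 (Bach1 intron 4), chr4:32478379-32478579 (Bach2 26 kb upstream), chr8:117947048-117947248 (Maf 284 kb downstream), chr7:35912213-35912413 (Cebpa 8 kb downstream) and chr8:118512885-118513085 (Maf 282 kb upstream). Capitals mark matches to TGACTCA (AP-1, TGAGTCA on the other strand), TGATGCAA (C/EBP-ATF, TTGCATCA on the other strand) and TGACNNNGC (core of the antioxidant response element, ARE).
Nfe2l2 intron 1: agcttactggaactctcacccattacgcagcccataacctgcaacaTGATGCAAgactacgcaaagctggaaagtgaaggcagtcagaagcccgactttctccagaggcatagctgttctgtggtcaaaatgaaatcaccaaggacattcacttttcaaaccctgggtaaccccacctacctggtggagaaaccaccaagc
Nfil3 intron 1: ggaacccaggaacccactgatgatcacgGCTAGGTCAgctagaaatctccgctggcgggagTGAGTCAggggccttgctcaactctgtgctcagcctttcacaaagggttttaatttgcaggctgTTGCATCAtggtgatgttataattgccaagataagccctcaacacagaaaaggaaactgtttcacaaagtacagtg
Bach1 intron 4: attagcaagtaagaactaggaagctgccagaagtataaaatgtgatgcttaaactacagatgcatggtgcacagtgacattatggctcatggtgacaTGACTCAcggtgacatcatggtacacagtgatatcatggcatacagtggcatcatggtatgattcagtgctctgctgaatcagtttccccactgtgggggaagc
Bach2 26 kb upstream: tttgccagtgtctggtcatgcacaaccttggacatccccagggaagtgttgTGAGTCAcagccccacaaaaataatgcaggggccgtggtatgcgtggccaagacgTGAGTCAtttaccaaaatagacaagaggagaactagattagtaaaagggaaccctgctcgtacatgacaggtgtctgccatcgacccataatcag
Maf 284 kb downstream: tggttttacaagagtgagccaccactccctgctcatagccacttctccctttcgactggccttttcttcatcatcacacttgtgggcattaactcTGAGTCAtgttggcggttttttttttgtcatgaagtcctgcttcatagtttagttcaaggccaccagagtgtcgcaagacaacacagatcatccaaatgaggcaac
Cebpa 8 kb downstream: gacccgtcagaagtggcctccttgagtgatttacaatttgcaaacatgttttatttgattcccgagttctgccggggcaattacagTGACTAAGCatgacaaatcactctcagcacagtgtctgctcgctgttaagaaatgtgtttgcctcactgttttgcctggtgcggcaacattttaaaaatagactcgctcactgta
Maf 282 kb upstream: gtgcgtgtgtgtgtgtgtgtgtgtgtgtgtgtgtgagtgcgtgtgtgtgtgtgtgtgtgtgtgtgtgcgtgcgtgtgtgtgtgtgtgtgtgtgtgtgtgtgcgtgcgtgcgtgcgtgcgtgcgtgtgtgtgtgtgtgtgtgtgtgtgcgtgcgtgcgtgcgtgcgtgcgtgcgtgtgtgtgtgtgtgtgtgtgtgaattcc
The AP-1 match lies 0 bp from the peak centre in Bach1 intron 4 and 2 bp from it at Maf 284 kb downstream. The window at Bach2 26 kb upstream has AP-1 matches 9 and 46 bp from the centre. In Nfil3 intron 1, AP-1 and C/EBP-ATF matches lie on opposite sides of the centre, 36 and 28 bp away. The window at Maf 282 kb upstream is a run of TG repeats without a match.

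In all, 8 motifs were searched on both strands: AP-1, C/EBP-ATF and the ARE core as above, the CRE (TGACGTCA), a palindromic C/EBP site (TTGCGCAA), an NFIL3 site (TTACGTAA), and by name the 2 forms of the MAF recognition element. Within 100 bp of the centre, AP-1 was present in 10 of the 25 standard peaks of these genes, against 14.8% of all 11888. It was present in 9 of the 17 KOIN peaks, against 26.1% of all 4871 KOIN peaks. The HDL + CpG list supplied 9 of these 17 peaks, and AP-1 was most frequent in that list, at 37.5% of its 1232 peaks. There 5 of the 9 member peaks had AP-1, so the pooled contrast is larger than the one in this condition. For HDL the values were 3 of 6 against 21.5%, and for unstimulated cells 1 of 2 against 26.1%. The C/EBP-ATF element was present in 6 standard peaks, against 2.51% of all, and in the same number of KOIN peaks, against 3.67%. The ARE core was present in 3 standard peaks (8.31% of all) and 3 KOIN peaks (11.5% of all). These peaks repeat sites across conditions, so by sites AP-1 was within 100 bp at 7 of 15, C/EBP-ATF at 3 and the ARE core at 3. The C/EBP-ATF sites were Nfe2l2 intron 1, Nfil3 intron 1 and Maf 125 kb downstream. No member peak held a CRE (0.580% of all standard peaks), the C/EBP site (0.168%), the NFIL3 site (0.135%) or a MAF recognition element (0 of 11888). Over whole peaks 10 of the 15 sites had a match, 9 of them to AP-1. All 9 were in a KOIN list, as were 13 of the 15 sites. No matches overlapped one another. The shares depended on the window: C/EBP-ATF was within 50 bp in 2 of the 25 standard peaks and the ARE core in 1. Shares over all peaks are given for the 100 bp window only. A match is a description of the letters and not evidence of binding.

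**Figure D1:**
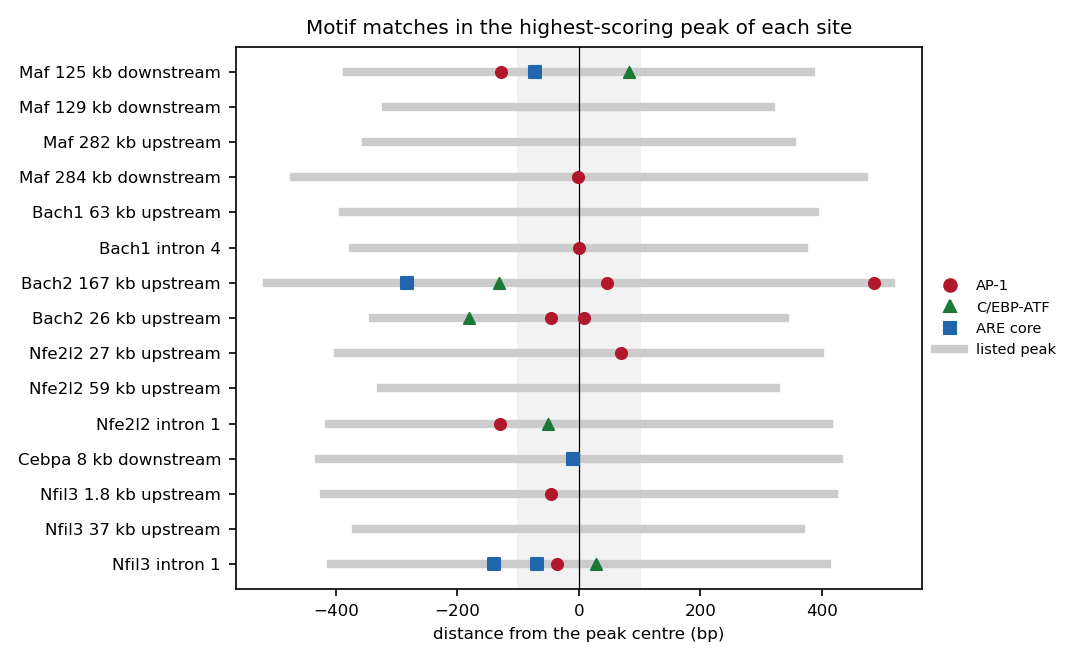
Motif matches in the highest-scoring peak of each of the 15 sites. The x axis is the distance from the peak centre in bp, gray bars are the listed peaks, the shaded band is 100 bp on each side, red circles are AP-1, green triangles C/EBP-ATF and blue squares the ARE core. AP-1 lies in 9 of the 15 sites, and 5 sites have no match.

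None of the 25 standard peaks was annotated to a promoter. HOMER placed 20 of them in intergenic sequence and 5 in introns, and for all standard peaks the promoter share was 3.09% in unstimulated cells, 5.02% with HDL and 4.49% with HDL + CpG. By the RefSeq start site, 2 lay within 10 kb and 10 beyond 100 kb. Beyond 100 kb lay 34.8% of all standard peaks in unstimulated cells, 26.8% with HDL and 29.5% with HDL + CpG. No share over all peaks is given for the 10 kb limit or for intergenic and intronic sequence, so those counts describe the members alone. The nearest site to any start site, 1.8 kb upstream of Nfil3, was in a KOIN list only. GENCODE vM1, which is on the same genome build, placed 5 of the 15 sites in an intron of the assigned gene and 10 in no gene. Among the 5 were both Bach2 sites, which HOMER had called intergenic: GENCODE holds a longer Bach2 gene, and the site 167 kb upstream of the RefSeq start lay 2.98 kb from a GENCODE Bach2 start site. The peaks of that site are among the 10 beyond 100 kb by the RefSeq start. At Maf, by contrast, the 4 sites lay 125, 129 and 284 kb downstream and 282 kb upstream of the start, with no other coding start site closer.

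**Figure D2:**
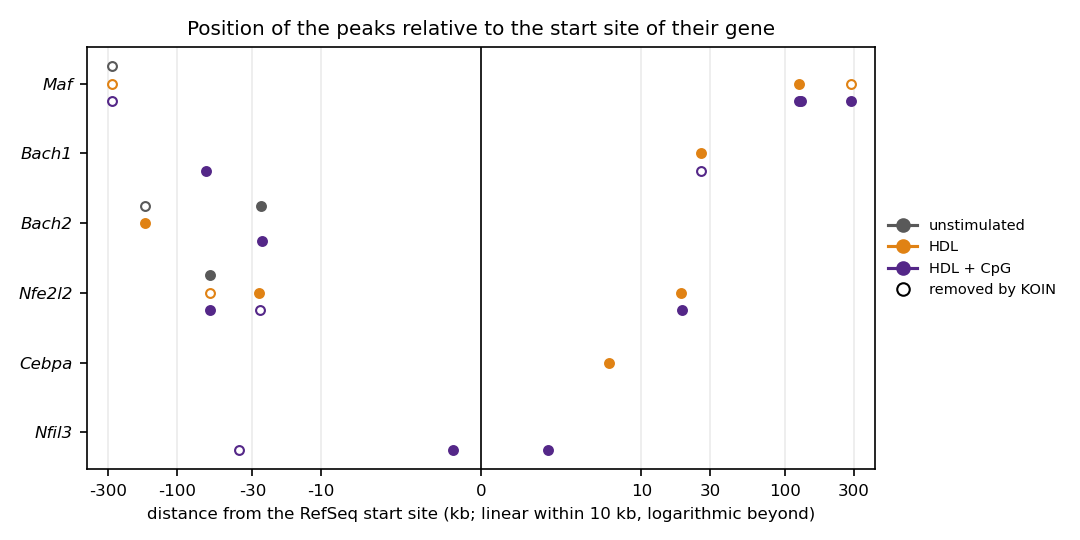
Position of the peaks relative to the RefSeq start site of their gene. The x axis is the distance in kb (linear within 10 kb, logarithmic beyond; negative values are upstream), rows are the 6 genes with peaks, colors are the conditions and open circles are removed peaks. All Bach2 peaks and most Nfe2l2 peaks lie upstream, and the Maf peaks lie more than 100 kb away on both sides.

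KOIN kept 2 of the 4 standard peaks in unstimulated cells (50%, Wilson 95% interval 15.0 to 85.0), 6 of 9 after HDL (66.7%, 35.4 to 87.9) and 8 of 12 after HDL + CpG (66.7%, 39.1 to 86.2). Over all standard peaks the kept share was 20.7%, 54.9% and 29.7%. The intervals of the members include the share of all peaks in unstimulated cells and with HDL, and lie above it with HDL + CpG. They treat the peaks as independent draws and are not a test of the members against all peaks. Of these 12 HDL + CpG peaks 7 belonged to Maf and Nfe2l2, so many share a locus. Counts of genes were similar, since every gene with a standard peak also had a KOIN peak in the same condition except Maf in unstimulated cells. The counts were 2 of 3 genes unstimulated and 5 of 5 in each stimulated condition, against 24.9%, 63.0% and 34.9% of all genes with a standard peak.

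WT tags exceeded KO tags in 24 of the 25 standard peaks. By the exact binomial test on reads, with adjustment over all standard peaks of a condition, WT was higher in 4 of 4 peaks unstimulated (56.2% of all peaks), 9 of 9 after HDL (79.5%) and 10 of 12 after HDL + CpG (40.9%). A ratio of 2 or more was seen in 2 of 4 (31.3% of all), 7 of 9 (66.6%) and 8 of 12 (34.7%). The median WT/KO ratio of the members was 2.00 unstimulated against 1.66 for all standard peaks, 2.29 against 2.41 with HDL, and 2.69 against 1.42 with HDL + CpG. The HDL peaks of these genes thus had a median WT/KO ratio below that of the whole list. Peaks were called in WT, which favors a ratio above 1 at any listed peak. When the KO library was rescaled so that the removed peaks had a median ratio of 1 (it was 1.49, 1.70 and 1.12 in the 3 conditions), the calls were 1 of 4, 3 of 9 and 8 of 12. The calls that held in unstimulated cells and with HDL were Nfe2l2 59 kb upstream (adjusted p = 0.0405, exact binomial test) and, with HDL, Cebpa 8 kb downstream (0.00129), Bach1 intron 4 (0.0155) and Nfe2l2 intron 1 (0.0200).

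In level, the members had a lower median than their list in unstimulated cells, a higher one with HDL and a similar one with HDL + CpG. Their median WT tags were 10.6 against 11.6 for all standard peaks unstimulated, 14.2 against 11.3 with HDL and 10.2 against 10.7 with HDL + CpG. Their median MACS score was 49.5 against 58.8, 84.9 against 58.3 and 56.6 against 56.5. Normalized WT tags per peak ranged from 5.05 to 19.0 and KO tags from 2.32 to 8.78. Reads behind a peak numbered 25 to 83 in WT and 11 to 58 in KO. Per kb, WT tags ran from 8.07 at Maf 282 kb upstream (HDL + CpG) to 22.4 in Nfe2l2 intron 1 (HDL). By recurrence, 4 of 4 unstimulated peaks, 8 of 9 HDL peaks and 8 of 12 HDL + CpG peaks overlapped a standard peak of another condition, against 79.7%, 53.8% and 68.4% of all standard peaks. Overlap with both other conditions was seen in 2 peaks of each condition (50%, 22.2% and 16.7%), against 55.3%, 28.8% and 40.5% of all.

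**Figure D3:**
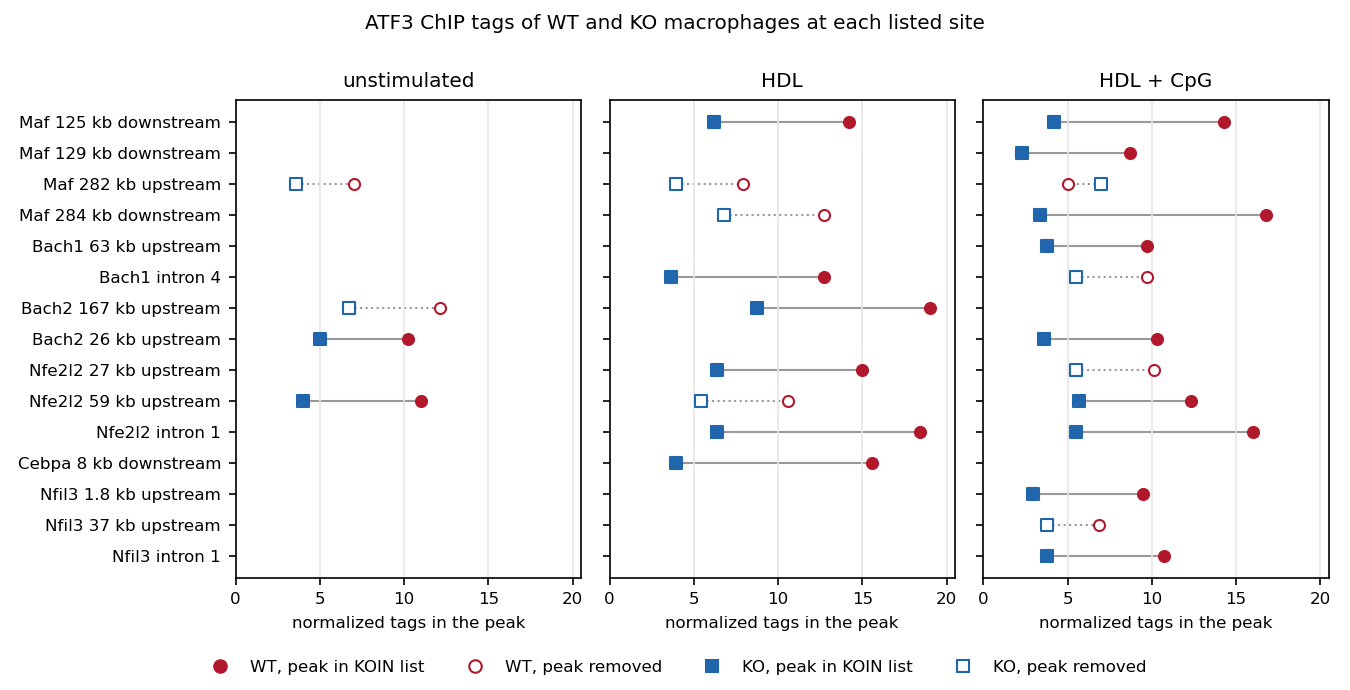
Normalized tags of WT (red circles) and KO (blue squares) macrophages in each listed peak, 1 panel per condition, with filled symbols for peaks in a KOIN list and open symbols for removed peaks. The x axis is tags in the peak per 10000000 total tags. WT lies to the right of KO in all peaks but 1, Maf 282 kb upstream with HDL + CpG.

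Maf had 8 standard peaks at 4 sites, the most of the 9 genes, and KOIN kept 4. The site 284 kb downstream had the highest ratio of the 25 standard peaks. With HDL it held 12.7 WT and 6.81 KO tags (ratio 1.86, 95% interval 1.21 to 2.85) and was removed. With HDL + CpG it held 16.8 WT and 3.37 KO tags (ratio 4.98, 2.89 to 9.12, adjusted p = 7.91e-10 by the exact binomial test), and was kept. The site 125 kb downstream was kept in both conditions, at 14.2 WT and 6.21 KO tags with HDL (ratio 2.29, 1.5 to 3.53) and 14.3 and 4.21 with HDL + CpG (ratio 3.41, 2.05 to 5.91). The peak was 764 bp wide with HDL and 938 bp with HDL + CpG, so tags per peak are not on one footing. Per kb, WT tags were 18.6 with HDL and 15.3 with HDL + CpG, and KO tags 8.13 and 4.49. The site 129 kb downstream, on a GA repeat, was listed with HDL + CpG alone, at 8.69 WT and 2.32 KO tags (ratio 3.75, 1.90 to 8.07), and was kept.

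The Maf site 282 kb upstream, on the TG repeat printed above, was the one site that the standard method listed in all 3 conditions and KOIN in none. It held 7.0 WT and 3.57 KO tags unstimulated (ratio 1.96, 1.10 to 3.49) and 7.91 and 3.94 with HDL (ratio 2.01, 1.15 to 3.54). With HDL + CpG the KO library was the higher one, at 5.05 WT and 6.95 KO tags (ratio 0.728, 0.415 to 1.26), which did not pass the exact binomial test (adjusted p = 0.367). With HDL its ratio was just above 2, the only removed peak of the 25 at or above that value. Of the 25 standard peaks, 4 lay on simple repeats, and 3 of these are this site. Satellites or simple repeats held 30.6%, 24.1% and 23.3% of all standard peaks in the 3 conditions.

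Nfe2l2, the gene for NRF2, had 7 standard peaks at 3 sites and KOIN kept 5. The site in intron 1 of 4 had the highest WT tags per kb of all member peaks and nearly the same ratio in both stimulated conditions. It held 18.4 WT and 6.36 KO tags with HDL (ratio 2.90, 1.95 to 4.36) and 16.0 and 5.47 with HDL + CpG (ratio 2.92, 1.85 to 4.74). With the KO libraries rescaled, these ratios were 1.71 with HDL and 2.60 with HDL + CpG. No unstimulated peak was listed there. The site 59 kb upstream was listed in all 3 conditions, at 11 WT and 3.97 KO tags unstimulated (ratio 2.78, 1.69 to 4.61), 10.6 and 5.45 with HDL (ratio 1.94, 1.2 to 3.12) and 12.3 and 5.68 with HDL + CpG (ratio 2.17, 1.36 to 3.55). It was kept unstimulated and with HDL + CpG and removed with HDL, where its ratio was just under 2. The site 27 kb upstream was kept with HDL at 15.0 WT and 6.36 KO tags (ratio 2.36, 1.56 to 3.61) and removed with HDL + CpG at 10.1 and 5.47 (ratio 1.85, 1.13 to 3.09, adjusted p = 0.0282 by the exact binomial test, 0.0826 with the KO library rescaled). On the rescaled KO library its HDL peak lost the call as well (ratio 1.39, adjusted p = 0.193 by the exact binomial test), and the order of the conditions turned, since the HDL + CpG ratio was then 1.65. Neither change of status came with a ratio that differed between the conditions by the test given below.

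Bach1, the gene for the repressor of NRF2 target genes, had its highest ratio in intron 4 of 4. That site held 12.7 WT and 3.63 KO tags with HDL (ratio 3.48, 2.09 to 5.95) and was kept. With HDL + CpG it held 9.70 and 5.47 tags (ratio 1.77, 1.08 to 2.98, adjusted p = 0.0455 by the exact binomial test, 0.123 with the KO library rescaled) and was removed. Another site, 63 kb upstream, was listed with HDL + CpG alone at 9.70 WT and 3.79 KO tags (ratio 2.56, 1.46 to 4.68) and was kept. No Bach1 peak was listed in unstimulated cells.

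Bach2, which codes for the relative of BACH1 best known from lymphocytes, had 4 standard peaks by gene name at 2 sites and KOIN kept 3. The site 26 kb upstream was kept unstimulated, at 10.2 WT and 5.03 KO tags (ratio 2.03, 1.26 to 3.28), and with HDL + CpG, at 10.3 and 3.58 tags (ratio 2.88, 1.64 to 5.32). The peak was 844 bp wide unstimulated and 679 bp with HDL + CpG. Per kb, WT tags were 12.1 and 15.2 and KO tags 5.96 and 5.27. No HDL peak was listed there. The site 167 kb upstream held the highest WT tags of all member peaks, 19.0 against 8.78 in KO with HDL (ratio 2.16, 1.51 to 3.11), and was kept. In unstimulated cells it held 12.1 WT and 6.75 KO tags (ratio 1.79, 1.17 to 2.73) and was removed.

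Cebpa had 1 peak, 8 kb downstream of its start site and listed with HDL alone. It held 15.6 WT and 3.94 KO tags, and its ratio of 3.95 (2.45 to 6.53, adjusted p = 9.59e-09 by the exact binomial test) was the highest of the 9 HDL member peaks. It stood at the 88.8 percentile of the ratios of its list. No CRE, C/EBP site or AP-1 match lay in this peak, and its one match was the ARE core 10 bp from the centre.

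Nfil3 was listed with HDL + CpG alone, at 3 sites. Intron 1, the only intron of its transcript, held 10.7 WT and 3.79 KO tags (ratio 2.83, 1.63 to 5.13) and was kept. The site 1.8 kb upstream held 9.50 WT and 2.95 KO tags (ratio 3.22, 1.74 to 6.34) and was found by KOIN but not by the standard method, as were 8.52% of all KOIN peaks of this condition (3.53% unstimulated and 4.11% with HDL, where no member peak was of this kind). The site 37 kb upstream held 6.87 WT and 3.79 KO tags (ratio 1.81, 0.996 to 3.41), did not pass the exact binomial test (adjusted p = 0.104), and was removed.

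**Figure D4:**
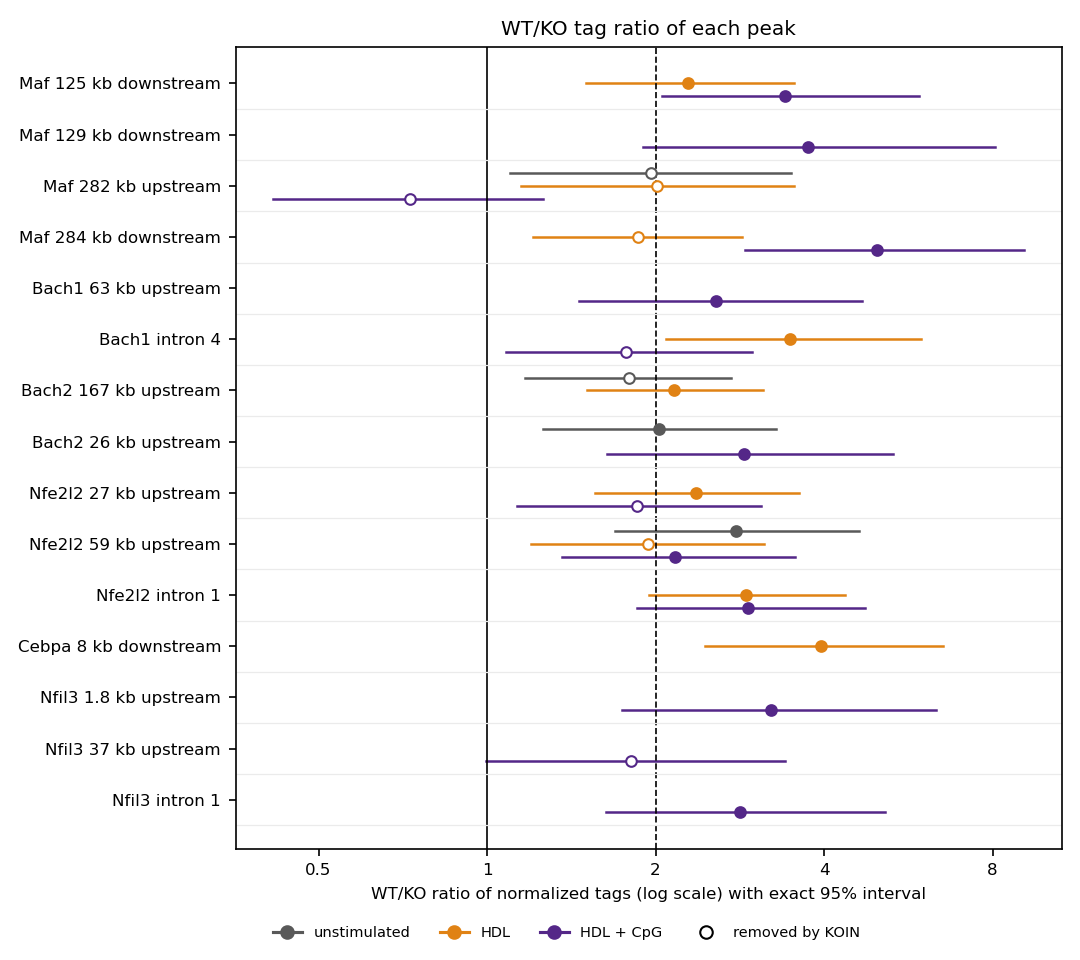
WT/KO ratio of normalized tags of each listed peak (log axis) with its exact 95% interval, colored by condition, open where KOIN removed the peak. The solid line is a ratio of 1 and the dashed line 2, the minimum of the KOIN lists. The lowest ratio is 0.728 at Maf 282 kb upstream and the highest 4.98 at Maf 284 kb downstream, both with HDL + CpG.

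A difference in WT/KO ratio between conditions was tested at the 13 pairs of overlapping member peaks by an exact conditional test on the reads of the 4 libraries, adjusted over all 6154 such pairs of the series. The ratio differed in 3 of 13 pairs, against 29.0% of all pairs, and all 3 were at Maf. By pair of conditions the count was 0 of 3 for unstimulated against HDL (23.1% of all such pairs), 1 of 3 for unstimulated against HDL + CpG (27.8%) and 2 of 7 for HDL against HDL + CpG (34.7%). At Maf 284 kb downstream the HDL ratio was 0.373 times that with HDL + CpG (95% interval 0.178 to 0.764, adjusted p = 0.0192, exact conditional test). At Maf 282 kb upstream the ratio with HDL + CpG was the lower one. By the same exact test the unstimulated ratio was 2.69 times as large (1.19 to 6.08, adjusted p = 0.0416) and the HDL ratio 2.76 times (1.24 to 6.18, adjusted p = 0.0313). With the KO libraries rescaled, the exact test of the first difference held (adjusted p = 2.82e-04) and the other two did not (0.204 and 0.282). For Nfe2l2 intron 1 the HDL ratio was 0.995 times the HDL + CpG ratio, with an interval of 0.529 to 1.86, so a difference within these bounds was not detectable at this depth. In Bach1 intron 4 the HDL ratio was 1.96 times as large (0.937 to 4.13), and the exact test did not pass (adjusted p = 0.141). The other pairs, at Nfe2l2, Bach2 and Maf, did not pass either, with ratios of ratios between 0.673 and 1.44.

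Cebpb, Maff and Mafk had no peak by gene name, yet listed peaks lay near them under other names, a search made after the lists had been seen. In HDL-treated cells, 3 standard peaks lay within 100 kb of the Cebpb start site, and all 3 were kept, beside 54.9% of all HDL peaks. The nearest, 28.3 kb downstream and assigned to A530013C23Rik, held 25.8 WT and 5.0 KO tags (ratio 5.17, 3.45 to 7.92). The highest ratio of the member peaks with HDL was 3.95. Peaks in introns of Tmem189, 31.9 and 39.4 kb upstream of Cebpb, had ratios of 2.40 (1.45 to 4.02) and 3.87 (2.58 to 5.91). With HDL + CpG the peak 28.4 kb downstream held 19.0 WT and 6.74 KO tags (ratio 2.82, 1.87 to 4.36). All 4 standard peaks within 100 kb were kept in that condition, beside 29.7% of all. In unstimulated cells 1 peak was listed, 39.4 kb upstream, at 10.8 WT and 6.09 KO tags (ratio 1.77, 1.13 to 2.76), and it was removed. The nearest peak to Mafk lay 65.2 kb upstream in an intron of Micall2 and was kept with HDL (ratio 2.39, 1.51 to 3.80) and with HDL + CpG (65.0 kb, ratio 2.73, 1.59 to 4.88). For Maff the nearest lay 66.8 kb downstream, was assigned to Tmem184b, and was kept with HDL (ratio 2.18, 1.33 to 3.58). Near genes with peaks of their own, the same search found the removed BC024582 peaks at Bach2 given above. It also found kept peaks near Bach1 (Map3k7cl, HDL, ratio 2.59) and Nfil3 (Auh, 2.70 with HDL and 2.92 with HDL + CpG). The lists give no tags where no peak was called, so signal below the calling threshold at the 3 genes cannot be read from them.

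The pathway around these factors was described by 3 gene lists. Of 14 other MAF, CNC, C/EBP and PAR bZIP genes, 1 had a standard peak, Nfe2l1, which codes for the CNC relative NRF1. Its 2 HDL peaks and 1 HDL + CpG peak were all kept, beside 54.9% and 29.7% of all standard peaks. The HDL + CpG peak 1.19 kb downstream of the start had a ratio of 3.84 (2.15 to 7.28). Of 15 NRF2 and BACH1 regulators and targets, 3 genes had a standard peak in unstimulated cells, 6 with HDL and 7 with HDL + CpG, and of these 2, 6 and 4 also had a KOIN peak (24.9%, 63.0% and 34.9% of all genes with a standard peak). WT was higher by the exact binomial test in 3 of 3, 8 of 9 and 8 of 10 of their standard peaks (56.2%, 79.5% and 40.9% of all). The highest KOIN scores in this list belonged to Sqstm1 (the autophagy receptor p62), Slc7a11 (cystine transport), Fth1 (ferritin heavy chain) and Gclc (glutathione synthesis). Slc7a11 and Gclc were kept with HDL, at ratios of 2.59 and 2.49 for their highest peaks, and removed with HDL + CpG, at 1.89 and 1.29. Sqstm1 had no HDL peak and was kept with HDL + CpG, at 3.14 for the peak 2.35 kb upstream. At Fth1 the peak 5.51 kb upstream was kept with HDL (2.72) and removed with HDL + CpG (1.42), while the peak 28 kb upstream was kept with HDL + CpG (3.10). No test between conditions is given for these genes, and their ratios use the library totals alone. The removed peaks had a median ratio of 1.70 with HDL and 1.12 with HDL + CpG, so the 2 conditions are not on one scale. Of 12 myeloid targets of C/EBP and MAF factors, 5, 6 and 6 genes had a standard peak, and 1, 5 and 4 of these also had a KOIN peak, beside the same 24.9%, 63.0% and 34.9% of all genes. The highest KOIN scores in this list belonged to Csf2ra (GM-CSF receptor), Il1b, Itgam (CD11b) and Il6, with HDL ratios of 2.86, 2.10, 7.84 and 2.59 at their kept peaks. Csf2ra had another HDL peak, 35.8 kb upstream, with more WT tags (29.3) and a ratio of 1.28. It was removed there, unstimulated (1.21) and with HDL + CpG (1.42). With HDL + CpG, Csf2ra (2.44) and Il1b (2.20) had a kept peak, and the listed Il6 peak (1.44) was removed. Atf3 itself, the deleted gene, had 3, 5 and 3 standard peaks, of which 2, 4 and 2 were kept (20.7%, 54.9% and 29.7% of all). The peak at its promoter was removed in each condition, at ratios of 1.73, 1.81 and 1.97. ChIP tags at the Atf3 locus do not check the deletion.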

How the data were processed

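Chromatin of 3 biological replicates was precipitated with a polyclonal ATF3 antibody, and the authors concatenated the reads of the replicates before alignment. Per the submitters' processing notes, CASAVA 1.8, Bowtie 0.12.8, MACS 1.4.2 and HOMER 4.3 were used, on mm9. Reads that map to several places were retained by the authors at their best position, which bears on the repeat sites. In the deposited lists, the score is the one MACS gave the authors for each peak, and the signal is the number of tags per peak, which the authors normalized to 10000000 tags per library. Peaks are those called in WT. The authors' column of WT/KO fold changes was not used, nor was the list of barcodes.

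Samples were grouped by the labels. All tags lay within 0.005 tags of whole reads, and the header totals were used to turn them into reads. WT reads were tested against KO reads by a two-sided exact binomial test with the library totals as the scale, ratios between conditions by an exact conditional test, and both were adjusted by Benjamini-Hochberg and called at 0.05. Ratios have exact 95% intervals and shares Wilson ones. The tests were tested on simulated data. Sequences were read from NCBIM37, the assembly of mm9. Every peak of the 9 genes is described, and at most 4 genes are named per pathway list, those with the highest KOIN score among kept genes, plus Atf3. Members and lists were chosen with earlier results of these data known. Alternatives were the overlap, the score, the distance, repeats, merging, a pseudocount of 1 tag, the scale of the KO library and the motif window. Scripts ran in Python 3.11.15 with scipy 1.17.1, pandas 2.3.3, numpy 2.4.6, matplotlib 3.10.9 and pysam 0.24.0.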

Additional observations from a re-analysis of the deposited data

Results flagged for a closer look

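The WT/KO ratio differed between conditions at 2 Maf sites by the exact conditional test. At Maf 284 kb downstream the HDL ratio was 0.373 times the HDL + CpG ratio (95% interval 0.178 to 0.764). At Maf 282 kb upstream, on a TG repeat, the unstimulated ratio was 2.69 times the HDL + CpG ratio (1.19 to 6.08) and the HDL ratio 2.76 times (1.24 to 6.18). Both of the latter share the HDL + CpG libraries, and both lost the call with the KO libraries rescaled.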

How the results depend on the processing

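Of 117 values under the alternatives, 0 changed direction. Many of these values are shares or counts, which have no direction, and a pseudocount of 1 tag cannot move a ratio across 1. The 0 is therefore no measure of robustness. It also does not cover the order of conditions at a site. That order turned at some sites on the rescaled KO library, such as Nfe2l2 27 kb upstream. With the KO library rescaled to the removed peaks, the share of peaks with more WT reads was 25.0% (1 of 4) unstimulated and 33.3% (3 of 9) with HDL, the median HDL ratio was 1.35, and 1 of 13 pairs of conditions still differed. Under that scale 11 single peaks lost their call. Within 100 kb of a start site the kept share was 100% (2 of 2) unstimulated, and within 10 kb it was 100% (1 of 1) in both stimulated conditions. Over whole peaks AP-1 was in 60% of standard peaks. Within 50 bp C/EBP-ATF was in 8.00% of standard and 11.8% of KOIN peaks and the ARE core in 4.00% and 5.88%. No share over all peaks is given for whole peaks or 50 bp, so these values describe the members alone. A score minimum of 60 (both shares) and the 10 kb limit left no unstimulated peak. No paired analysis was possible because each condition has 1 pooled library per genotype, and for the same reason no replicate could be left out. The 11 to 58 KO reads per peak limit how small a difference can be seen.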
